A study of Mus musculus with 8 samples.

Results

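The liver makes most of the proteins of blood plasma, and the genes of 10 of them were followed through the lung libraries of this series: *Alb*, *Afp*, *Ahsg*, *Apoa1*, *Apoa2*, *Ttr*, *Fga*, *Fgb*, *Fgg* and *Trf*. They are the rows with these symbols among the 25965 genes of the deposited table. The group was chosen by its measured levels in these same 8 libraries, in which 1 library stood apart, so the levels are given as a description and carry no test. Hepatocytes transcribe these genes under a shared set of nuclear factors, among them HNF4 and the C/EBP family, and release the proteins into the blood. Albumin (*Alb*) carries fatty acids and holds the osmotic pressure of plasma, and alpha-fetoprotein (*Afp*) is its fetal relative. Fetuin-A (*Ahsg*) binds calcium phosphate, *Apoa1* and *Apoa2* encode the main proteins of high-density lipoprotein, transthyretin (*Ttr*) carries thyroxine and retinol-binding protein, and *Fga*, *Fgb* and *Fgg* encode the chains that together form fibrinogen. Transferrin (*Trf*) carries iron and is also made outside the liver.

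Total lung RNA was taken at E18.5, before birth, and at P1.5, after it. At each stage 2 *Wfdc2* +/+ animals and 2 *Wfdc2* GFP/GFP animals gave 1 library each, so that there were 4 groups. On both alleles of *Wfdc2* GFP/GFP mice a GFP cassette replaces the start of *Wfdc2*, a protease inhibitor gene of the airway. The allele was made by targeting in embryonic stem cells, its drug resistance gene was removed by crossing with *CAG-Cre* mice, and the controls were littermates. In these mice every cell carries the allele, and newborns can have collapsed regions of the lung, so genotype and the state of the lung at P1.5 cannot be told apart. Whole lungs were used, and fewer cells of a type and less RNA per cell cannot be told apart in such RNA.

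Reads behind each value were recovered from the deposited log2 RPKM, and the totals ran from 19457647 to 37209333 reads a library. A level of 3 reads, taken as the limit of detection, stood for 0.0806 to 0.154 RPM, the reads of a gene scaled by the total of its library as in the deposited RPKM but without the gene length. *Wfdc2* had 8038 to 32845 reads in +/+ libraries and 0 to 12 in GFP/GFP libraries. The 11 lung epithelium genes, among them *Sftpc*, *Ager* and *Scgb1a1*, were above 3 reads in all 8 libraries and summed to 9932 to 86237 RPM, with the lowest sum in replicate 1 of E18.5 *Wfdc2* GFP/GFP. In that library 35.0% of the 15627 genes tested had their highest level. *Xist* had 4121 to 90980 reads in every replicate 1 and 1 to 13 in every replicate 2, and *Ddx3y* the reverse, so sex and replicate number cannot be told apart.

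In mm10, *Alb* (chr5:90460889-90476603) and *Afp* (chr5:90490714-90508907) lie next to each other on the forward strand. *Fgg* (chr3:83007859-83015053), *Fga* (chr3:83026153-83033615) and *Fgb* (chr3:83042247-83049803) lie side by side, with *Fgb* on the reverse strand. *Apoa1* (chr9:46228580-46230466) and *Trf* (chr9:103204001-103230444) share a chromosome, *Apoa2* lies at chr1:171225054-171226379, *Ahsg* at chr16:22892042-22899438 and *Ttr* at chr18:20665250-20674324. The authors' values run over the whole gene with introns. In GENCODE M21, *Trf* overlaps the gene model *Gm20425* on its own strand, and *Fgg*, *Afp*, *Ahsg* and *Ttr* each overlap a noncoding gene on the other strand. The strand setting of the count is not given, so reads of these partners cannot be told apart from those of the genes.

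Apart from *Trf*, the genes had few reads in most libraries, and only *Alb* and *Apoa2* among them were above the limit of 3 reads in all 8. Outside replicate 2 of P1.5 *Wfdc2* +/+, the medians over the other 7 libraries were 29 reads for *Alb*, 23 for *Apoa2*, 13 for *Afp*, 6 each for *Ahsg* and *Apoa1*, 3 for *Fgg*, 2 for *Fga*, 1 for *Ttr* and 0 for *Fgb*. *Trf* had between 6423 and 32368 reads there. Per kilobase of exon, *Trf* was the highest of the 10 genes in all 8 libraries. Its level ran from 88.6 to 312.8 RPM per exonic kilobase, and the next gene reached 0.836 to 5.18 in the 7 libraries and 22.6 in replicate 2 of P1.5 *Wfdc2* +/+. The order below *Trf* also differed between libraries. *Apoa2* came second in 6 libraries, *Apoa1* in replicate 1 of P1.5 *Wfdc2* +/+ and *Alb* in replicate 2 of that group.

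**Figure D1:**
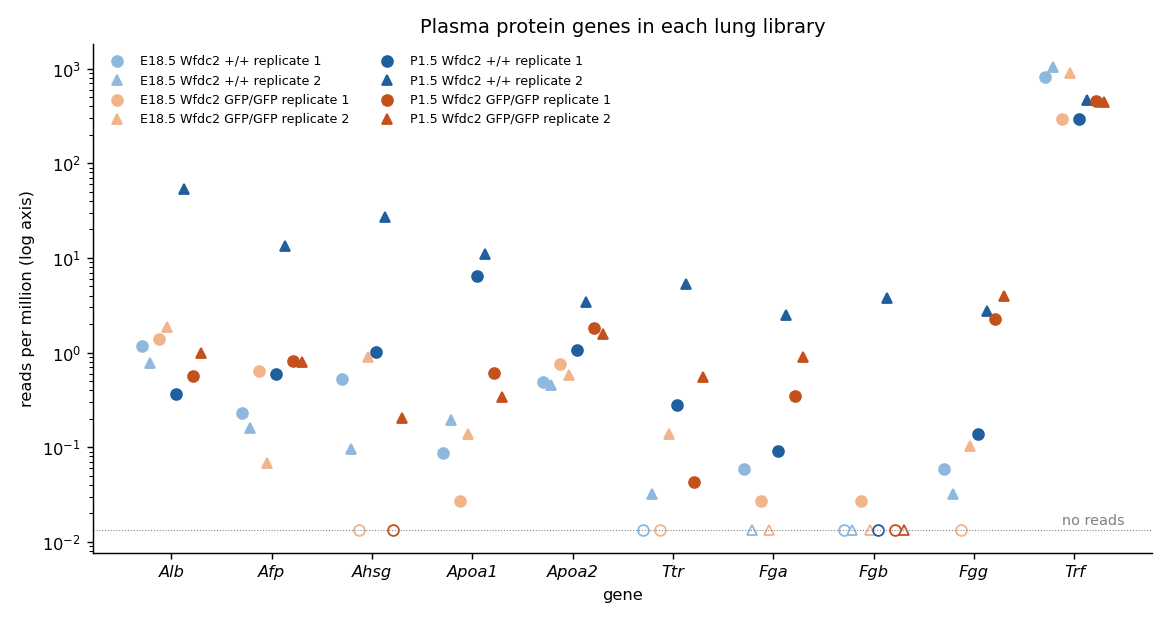
Level of each plasma protein gene in each library, in RPM on a log axis, with circles for replicate 1, triangles for replicate 2 and open symbols on the dotted line for genes without reads. Replicate 2 of P1.5 Wfdc2 +/+ lies at least 4-fold above the other 7 libraries for *Alb*, *Afp*, *Ahsg*, *Ttr* and *Fgb*, whereas *Trf* is abundant in all 8.

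In replicate 2 of P1.5 *Wfdc2* +/+, *Alb* had 1030 reads, or 52.9 RPM, and it was the most abundant of these genes there after *Trf*. In the other libraries *Alb* had 40 and 24 reads in E18.5 *Wfdc2* +/+, 52 and 55 in E18.5 *Wfdc2* GFP/GFP, 8 in replicate 1 of P1.5 *Wfdc2* +/+, and 13 and 29 in P1.5 *Wfdc2* GFP/GFP. Thus 82.3% of all *Alb* reads of the series came from 1 library, in which the level was 28.1-fold that of the next highest library and 144-fold that of the other library of its own group. *Afp* had 257 reads in this library. It had 8 and 5 reads in E18.5 *Wfdc2* +/+, 24 and 2 in E18.5 *Wfdc2* GFP/GFP, 13 in replicate 1 of P1.5 *Wfdc2* +/+, and 19 and 23 in P1.5 *Wfdc2* GFP/GFP. *Afp* was 16.1-fold above the next highest library, and its share of reads in the library that stood apart was 73.2%.

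*Ahsg* had 523 reads in the same library, 26.5-fold above the next highest. It had 18 and 3 reads in E18.5 *Wfdc2* +/+, 0 and 26 in E18.5 *Wfdc2* GFP/GFP, 22 in replicate 1 of P1.5 *Wfdc2* +/+, and 0 and 6 in P1.5 *Wfdc2* GFP/GFP. *Ahsg* was therefore not detected in replicate 1 of both GFP/GFP groups, where 3 reads would be 0.0806 and 0.130 RPM. *Ttr* had 102 reads in replicate 2 of P1.5 *Wfdc2* +/+. It had 0 and 1 in E18.5 *Wfdc2* +/+, 0 and 4 in E18.5 *Wfdc2* GFP/GFP, 6 in replicate 1 of P1.5 *Wfdc2* +/+, and 1 and 16 in P1.5 *Wfdc2* GFP/GFP. Of 6 marker genes of the choroid plexus, the other well-known site of *Ttr*, 1 had its highest level in this library.

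A level at least 4-fold above every other library was reached in replicate 2 of P1.5 *Wfdc2* +/+ by 5 of the 10 plasma protein genes and by 27 of all 15627 genes tested (0.173%). These levels helped to choose the group, so nothing is read from the contrast of the shares. In each of the other 7 libraries between 0 and 41 genes met the same criterion, and none of the 10 was among them. All 10 genes passed the filter of a mean of 0.05 RPKM over the 8 libraries, but 6 of them would reach it on the other 7 libraries. The 4 that passed through this library are *Afp*, *Ttr*, *Fga* and *Fgb*. Among the 27 genes were also the fatty acid binding protein gene *Fabp1* with 47 reads, the gluconeogenic enzyme gene *Pck1* with 46 and the pentraxin gene *Apcs* with 9, all on the lists used here. Named after their values were seen, the genes of stratified epithelium *Krt13* with 1092 reads against 11 to 57 in the other libraries, *Krt4* with 930 against 34 to 114, *Psca* with 464 against 0 to 14 and *Krt6a* with 82 against 0 to 4 stood apart in the same library. Whether they share a source with the plasma protein genes was not tested.

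Promoters are shown for *Alb*, whose reads came mostly from 1 library, and for the 3 fibrinogen chain genes, which lie side by side but did not share a pattern. The windows of 300 bases, from 250 before to 50 after the start in RefSeq annotation (GRCm38.p6, which is mm10), are *Alb* chr5:90460620-90460919, *Fga* chr3:83025903-83026202, *Fgb* chr3:83049814-83050113 on the reverse strand and *Fgg* chr3:83007474-83007773. They read 5′ to 3′ along the gene, and capitals mark a C/EBP motif (TTGCNNAA on either strand) or a TATA box (TATAAA on either strand).
Alb: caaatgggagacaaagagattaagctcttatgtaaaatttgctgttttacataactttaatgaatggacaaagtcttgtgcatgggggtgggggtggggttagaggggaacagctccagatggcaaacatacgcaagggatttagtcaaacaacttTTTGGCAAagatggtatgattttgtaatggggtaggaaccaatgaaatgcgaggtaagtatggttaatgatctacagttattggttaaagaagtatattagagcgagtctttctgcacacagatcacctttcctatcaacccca
Fga: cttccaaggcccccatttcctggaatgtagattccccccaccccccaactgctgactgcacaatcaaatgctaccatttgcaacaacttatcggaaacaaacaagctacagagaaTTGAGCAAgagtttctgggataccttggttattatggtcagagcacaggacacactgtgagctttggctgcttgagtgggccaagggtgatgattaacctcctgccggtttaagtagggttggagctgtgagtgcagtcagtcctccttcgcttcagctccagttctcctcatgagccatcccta
Fgb: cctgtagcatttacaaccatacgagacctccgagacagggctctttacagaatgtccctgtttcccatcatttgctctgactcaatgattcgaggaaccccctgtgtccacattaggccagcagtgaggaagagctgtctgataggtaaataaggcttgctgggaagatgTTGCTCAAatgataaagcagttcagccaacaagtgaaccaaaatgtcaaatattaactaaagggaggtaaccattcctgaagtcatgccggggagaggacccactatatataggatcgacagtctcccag
Fgg: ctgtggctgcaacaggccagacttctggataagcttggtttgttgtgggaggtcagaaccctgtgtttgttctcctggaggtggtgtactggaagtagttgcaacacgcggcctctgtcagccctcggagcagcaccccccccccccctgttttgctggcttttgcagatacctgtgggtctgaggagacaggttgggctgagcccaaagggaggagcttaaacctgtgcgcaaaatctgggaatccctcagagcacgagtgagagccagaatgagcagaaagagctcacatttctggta
TTGCNNAA began at -80 from the start of *Fgb*, and on the opposite strand at -94 from that of *Alb* and -135 from that of *Fga*. The window of *Fgg* held neither motif, nor AAGTCCA (HNF4), and TATAAA was in none of these 4. The *Fgg* window ends at chr3:83007773, before the span whose reads were counted, which starts at chr3:83007859. That of *Fgb* also lies outside its counted span, while those of *Alb* and *Fga* reach into theirs. Windows were found for 8 of the 10 genes, 9 windows in all because *Apoa2* has a pair, and *Ttr* and *Trf* were not among the windows used here. TTGCNNAA was in 6 of the 9 windows and in 10.8% of 32851 promoter windows of the genome. AAGTCCA was in 2 of the 9, both of *Apoa2*, and in 4.17%, and TATAAA in 2 of the 9 and in 13.6%. Such a match is a description of the letters and no measure of binding.

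The fibrinogen chain genes differed among themselves. *Fgb* had 73 reads in replicate 2 of P1.5 *Wfdc2* +/+, a level at least 27.2-fold higher than the 3-read limit of the other library of its group. Elsewhere it had 1 read, in replicate 1 of E18.5 *Wfdc2* GFP/GFP, and 0 in the other 6 libraries. *Fgg* had 54 reads in the same P1.5 *Wfdc2* +/+ library and 3 in the other. At P1.5 in *Wfdc2* GFP/GFP lungs *Fgg* had 52 and 116 reads, or 2.24 and 3.96 RPM, beside 2.78 RPM in the library that stood apart for albumin. The 95% counting intervals of these levels were 1.68 to 2.94, 3.28 to 4.76 and 2.08 to 3.62 RPM. At E18.5 *Fgg* had 2 and 1 reads in +/+ and 0 and 3 in GFP/GFP. *Fga* had 48 reads in replicate 2 of P1.5 *Wfdc2* +/+ and 2 in replicate 1, 8 and 26 reads in P1.5 *Wfdc2* GFP/GFP, and 0 to 2 at E18.5.

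Thus the make-up of the 3 chains was not the same where fibrinogen reads were found. In replicate 2 of P1.5 *Wfdc2* +/+ the 175 reads of the 3 genes were 27.4% *Fga*, 41.7% *Fgb* and 30.9% *Fgg*. Exact binomial 95% intervals, which cover counting error only, were 21.0% to 34.7%, 34.3% to 49.4% and 24.1% to 38.3%. In P1.5 *Wfdc2* GFP/GFP *Fgg* took 86.7% of 60 reads in replicate 1 and 81.7% of 142 reads in replicate 2. *Fgb* was 0 of 60 and 0 of 142, where the exact upper limits were 5.96% and 2.56%. *Alb* in those libraries was at 0.561 and 0.991 RPM, inside the range of 0.368 to 1.88 RPM of all libraries but the one that stood apart. High *Fgg* in GFP/GFP lungs at P1.5 was therefore found without *Fgb* and without high *Alb*.

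**Figure D2:**
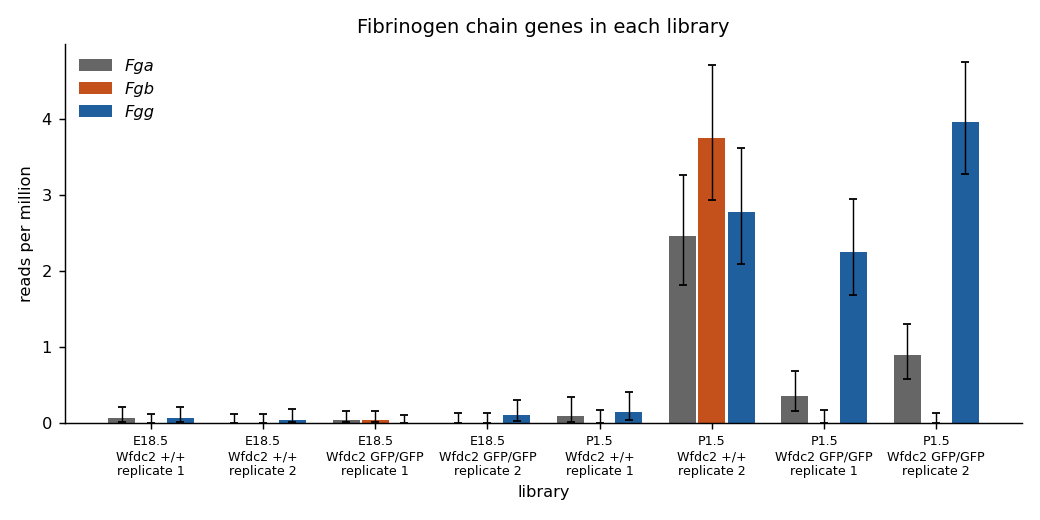
RPM of the 3 fibrinogen chain genes in each of the 8 libraries, with exact binomial 95% intervals that cover counting error only. All chains are present in replicate 2 of P1.5 Wfdc2 +/+, whereas in both P1.5 Wfdc2 GFP/GFP libraries *Fgg* leads and *Fgb* has no reads.

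Some acute-phase genes, a group that liver and other epithelia raise under cytokines such as interleukin-6, were at high levels in the same P1.5 *Wfdc2* GFP/GFP libraries as *Fgg*, whereas *Crp* and *Apcs* had 0 reads in both. *Saa3* had 9766 and 39931 reads there, against 489 and 77 in P1.5 *Wfdc2* +/+, 225 and 159 in E18.5 *Wfdc2* +/+, and 12 and 126 in E18.5 *Wfdc2* GFP/GFP. From E18.5 to P1.5 in *Wfdc2* GFP/GFP, 6 of the 14 acute-phase genes tested rose (*Saa1*, *Saa2*, *Saa3*, *Orm1*, *Hp* and *Lcn2*) and 1 fell (*Il6ra*), by limma with Benjamini-Hochberg adjustment, beside 4.55% of all genes called in that comparison. The list's median difference was 3.36 in log2 RPKM and that of all genes -0.46. *Saa3* was higher by 9.33 ± 1.25 (SE, adjusted p = 0.021) and *Lcn2* by 5.62 ± 0.79 (adjusted p = 0.0237). Without replicate 1 or 2 of P1.5 *Wfdc2* GFP/GFP, or replicate 1 of E18.5 *Wfdc2* GFP/GFP, this comparison called 0, 1 and 0 genes in all, so these calls need every one of those libraries. No acute-phase gene passed the threshold between genotypes at P1.5, where the list's median difference was 1.73, and 0.96 without replicate 2 of P1.5 *Wfdc2* +/+.

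*Apoa1* followed another pattern and was high in both libraries of P1.5 *Wfdc2* +/+, with 139 and 213 reads (6.40 and 10.9 RPM). It had 14 and 10 reads in P1.5 *Wfdc2* GFP/GFP, 3 and 6 in E18.5 *Wfdc2* +/+, and 1 and 4 in E18.5 *Wfdc2* GFP/GFP. The groups at P1.5 did not overlap. The difference between GFP/GFP and +/+ at P1.5 was -4.20 ± 0.81 in log2 RPKM (SE, n = 2 per group) with all libraries and -3.82 ± 0.996 without the library that stood apart. In replicate 1 of P1.5 *Wfdc2* +/+, *Apoa1* was high while *Alb* had 8 reads, its lowest number in the series. Values of 3 other secreted protein genes are given beside it, named here after their values were seen. *Apoa4*, which lies in the same gene cluster as *Apoa1*, had 15 and 7 reads there and 0 in the other 6 libraries. *Afm*, a relative of albumin, had 23 and 14 reads against 0 or 1 elsewhere, and *Fetub*, the relative of *Ahsg*, had 60 and 20 reads there, 18 and 30 in P1.5 *Wfdc2* GFP/GFP and at most 1 at E18.5.

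*Apoa2* varied least after *Trf*. It had 17 and 14 reads in E18.5 *Wfdc2* +/+, 28 and 17 in E18.5 *Wfdc2* GFP/GFP, 23 and 67 in P1.5 *Wfdc2* +/+, and 42 and 46 in P1.5 *Wfdc2* GFP/GFP. Every library of P1.5 was above every library of E18.5 in RPM, and the stage difference was 2.02 ± 0.54 in +/+ and 1.35 ± 0.54 in GFP/GFP (SE). In the library that stood apart the 67 reads were 1.90-fold the next highest level.

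*Trf* had 28288 and 32368 reads in E18.5 *Wfdc2* +/+, 10940 and 26497 in E18.5 *Wfdc2* GFP/GFP, 6423 and 9095 in P1.5 *Wfdc2* +/+, and 10510 and 13060 in P1.5 *Wfdc2* GFP/GFP. In RPM these were 822 and 1038, 294 and 906, 296 and 467, and 454 and 446. Replicate 2 of P1.5 *Wfdc2* +/+, the library in which *Alb* was highest, had rank 4 of 8 for *Trf* and held 6.63% of its reads. The stage difference in *Wfdc2* +/+ was -1.31 ± 0.52 in log2 RPKM, without overlap. In *Wfdc2* GFP/GFP it was -0.20 ± 0.52 (0.48 with median centring), and there the E18.5 libraries lay on both sides of those of P1.5. Without replicate 1 of E18.5 *Wfdc2* GFP/GFP, the library with the lowest sum of lung epithelium genes, the difference was -1.01. With read-through *Gm20425* on the same strand, these values may hold reads of both models.

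Within a library, the ratio to *Alb* set replicate 2 of P1.5 *Wfdc2* +/+ outside the range of the other 7 libraries for *Fgb*, *Apoa2* and *Trf* and left it inside that range for the other 6 genes. The ranges rest on 8 to 55 *Alb* reads and were wide, 0.0192 to 17.4 for *Apoa1*, so lying inside them says little about a shared make-up. In it there were 0.508 *Ahsg* reads, 0.250 *Afp* reads, 0.207 *Apoa1* reads, 0.099 *Ttr* reads and 0.0709 *Fgb* reads for each *Alb* read. Over the other 7 libraries summed, the same ratios were 0.339 for *Ahsg*, 0.425 for *Afp*, 0.801 for *Apoa1*, 0.127 for *Ttr* and 0.00452 for *Fgb*. Library by library the ratios elsewhere ran from 0 to 2.75 for *Ahsg* and from 0 to 0.75 for *Ttr*, so there was no common ratio, and *Fgb* had 73 of its 74 reads in replicate 2 of P1.5 *Wfdc2* +/+. For *Fgg* the ratio was 0.0524 in this library and 0.801 over the others, and for *Trf* it was 8.83 and 579.6.

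Between genotypes at P1.5, none of the 10 genes passed the threshold of limma (adjusted p under 0.05), where 0.0128% of all genes tested were called. At an unadjusted p under 0.05 there were 2 of the 10, beside 10.9% of all genes, and limma's voom on the recovered reads called 0. *Ahsg* and *Apoa1* were lower in GFP/GFP without overlap between groups in RPM, 2 of 10 beside 34% of all genes. The signs of several genes turned on the library that stood apart. With all libraries the difference was -2.57 ± 1.88 for *Alb*, -1.81 ± 1.47 for *Afp*, and -0.18 ± 0.54 for *Apoa2* (0.02 with median centring). Without replicate 2 of P1.5 *Wfdc2* +/+ these became 1.02, 0.42 and 0.67, while *Fgg* went from 2.27 to 4.43 and *Fga* from 0.22 (-0.30 with a pseudocount of 0.1 RPKM) to 2.59. *Ahsg* stayed lower, from -5.87 to -3.50, and *Trf* was 0.28 and 0.61. *Ttr* went from -2.97 to -0.85, or to 0.963-fold with values under 3 reads set to 3. Its 6 reads in the +/+ library left lay between the 1 and 16 reads of the GFP/GFP libraries, also in RPM. For *Fgb* the difference was -3.51 ± 1.72, and without that library no value is given because the other 3 libraries had 0 reads. The median over the 10 genes was -2.19 with all libraries (-1.99 with genes at or under 3 reads set to 3) and 0.51 without that library, beside -0.20 for all genes tested. With 1 library left in that group, the remaining one was assumed to vary like the other groups.

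**Figure D3:**
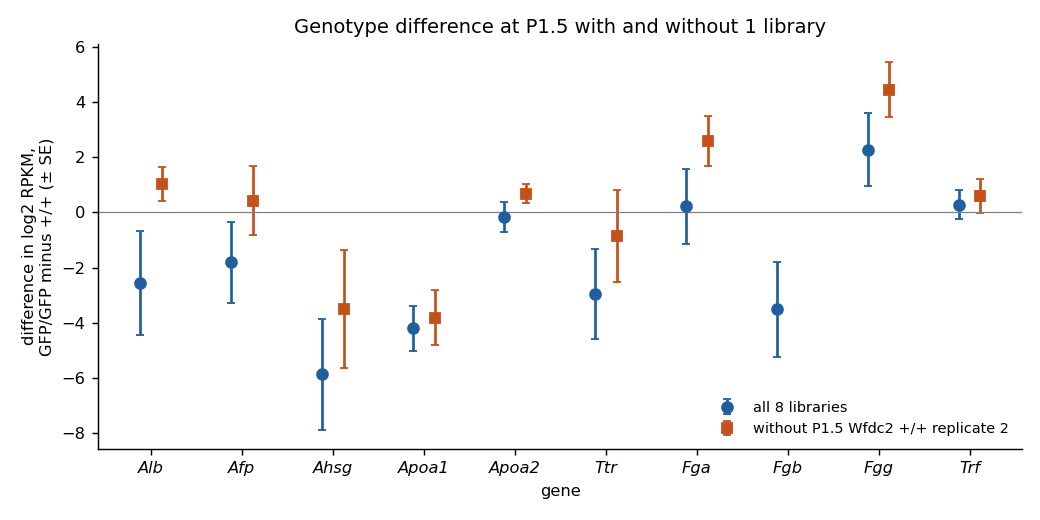
Difference in log2 RPKM between Wfdc2 GFP/GFP and Wfdc2 +/+ at P1.5 for each plasma protein gene, with the standard error of the limma fit, on all 8 libraries and without replicate 2 of P1.5 Wfdc2 +/+. *Fgb* has no second point because it had 0 reads in the libraries left. *Alb*, *Afp* and *Apoa2* change sign, while *Apoa1* and *Ahsg* stay lower and *Fgg* higher in GFP/GFP.

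At E18.5 none of the 10 genes was told apart between the genotypes. None passed the threshold of limma, none had an unadjusted p under 0.05, beside 4.37% of all genes, and voom called 0, beside 0.0192% of all genes called by limma. *Alb* was higher in GFP/GFP by 0.78 ± 1.88 in log2 RPKM and *Apoa2* by 0.49 ± 0.54, both without overlap, 2 of 10 beside 36% of all genes. *Trf* was lower by -0.84 ± 0.52, but by -0.03 without replicate 1 of E18.5 *Wfdc2* GFP/GFP. The median of the 10 differences was 0.09, as was that of all genes tested.

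From E18.5 to P1.5 in *Wfdc2* +/+, 8 of the 10 genes were without overlap between the stages in RPM, 7 higher and *Trf* lower, beside 50.7% of all genes. Of these, *Fga* and *Fgg* had only 2 and 3 reads in replicate 1 of P1.5, at or under the limit of detection. *Alb* overlapped, since replicate 1 of P1.5 held its lowest level, and so did *Fgb*, with 0 reads in 3 of the 4 libraries. None of the 10 passed the threshold of limma or of voom, where 0.0576% of all genes were called by limma. At an unadjusted p under 0.05 there were 7 of the 10, beside 11.8% of all genes, in the comparison whose levels chose the group. Nothing is therefore read from these shares, and *Afp*, *Ttr* and *Fga* among the 7 passed the filter only through replicate 2 of P1.5 *Wfdc2* +/+. The median difference was 3.84 (2.87 with genes at or under 3 reads set to 3) beside -0.15 for all genes, and 1.40 without replicate 2 of P1.5 *Wfdc2* +/+. *Apoa1* was higher by 6.01 ± 0.81, and by 5.63 without that library. *Alb* went from 2.22 to -1.36 when that library was left out. Without it 13.9% of all genes were called, and *Apoa1* was the 1 of the 10 among them.

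In *Wfdc2* GFP/GFP, 6 of the 10 genes were without overlap between the stages in RPM, beside 67.1% of all genes. *Fgg* was higher at P1.5 by 5.90 ± 1.33, *Fga* by 4.27 ± 1.36, *Apoa1* by 2.91 ± 0.81, *Afp* by 1.93 ± 1.47 and *Apoa2* by 1.35 ± 0.54, and *Alb* was lower by -1.12 ± 1.88. None passed the threshold of limma or of voom, where 4.55% of all genes were called by limma. At an unadjusted p under 0.05 there were 4 of the 10, beside 35.6% of all genes, a share near that background. When replicate 2 of P1.5 *Wfdc2* +/+, which is not in this comparison but adds to the shared estimate of spread, was left out, 31.1% of all genes were called and *Apoa1*, *Apoa2*, *Fga* and *Fgg* were among them. The same 4 were called without replicate 1 of that group, where 4874 genes were called, and without replicate 1 of either GFP/GFP group none was. The median difference was 1.38 with it and without it, beside -0.46 for all genes. The genotype contrasts share their libraries with the stage contrasts, so their values are not independent. For none of the 10 did limma call a difference between the genotype effects at the stages, nor for any gene tested (0%), with 1 of the 10 at an unadjusted p under 0.05, beside 10.2% of all genes (1599), and 0 of the 10 by voom.

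Other hepatocyte genes were looked at by lists chosen by their known site of synthesis. Of 46 other secreted proteins of hepatocytes, 38 had more than 3 reads in replicate 2 of P1.5 *Wfdc2* +/+, and 17 to 24 in each of the other libraries. Of 38 hepatocyte enzymes and transporters, 28 were above 3 reads in it and 14 to 19 in the others. Over all 25965 genes this library was not set apart by detection, with 64.6% of genes above 3 reads in a range of 62.2% to 66.8%. By deposited level, 32 of the 46 secreted protein genes and 22 of the 38 enzyme genes were highest in this library. The share was 15.6% among the 18962 genes with more than 3 reads in some library. These shares are not on the same footing, because 6 genes of each list were at or under 3 reads in every library. A gene without reads in any library counts as highest in the library with the fewest reads, which was this library. *Kng1*, the kininogen gene, had 90 reads there and at most 1 elsewhere. *Serpina1b*, an alpha-1-antitrypsin gene with close copies, had 48 and at most 1, *Apoh* had 69 and at most 14, and *Plg*, the plasminogen gene, had 51 and at most 11. These genes were named after their values were seen.

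Some enzymes of the hepatocyte list, named after their values were seen, had few reads even there, although 28 of its 38 genes were above 3 reads in this library. *Cps1*, the entry enzyme of the urea cycle, had 4 reads in replicate 2 of P1.5 *Wfdc2* +/+, *Cyp3a11* had 4 and *Bhmt* 15. *Hnf4a* had 8 reads, and of the 10 hepatocyte transcription factor genes 5 were above 3 reads, in a range of 3 to 6 over all libraries. Of 13 markers of Kupffer cells and other liver cells, 2 had their highest level in this library. They were *Clec4f*, with 4 reads against 0 to 2 elsewhere, and *Lrat*, with 3.34 RPM against at most 2.77. Others on that list were abundant in every library, such as *Krt19* with 6060 to 34423 reads. Among the most abundant genes of the hepatocyte lists, *Hp*, *Gnmt*, *Khk* and *Ass1* had 6376, 74, 312 and 202 reads in this library against up to 50321, 1094, 2074 and 7985 elsewhere. In the same library the lung epithelium genes summed to 40179 RPM, against 79656 in the other library of its group and 65396 and 86237 in P1.5 *Wfdc2* GFP/GFP. Erythroid genes summed to 7686 RPM against 13508 in the other library. The part of these markers in the plasma protein levels was not tested.

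**Figure D4:**
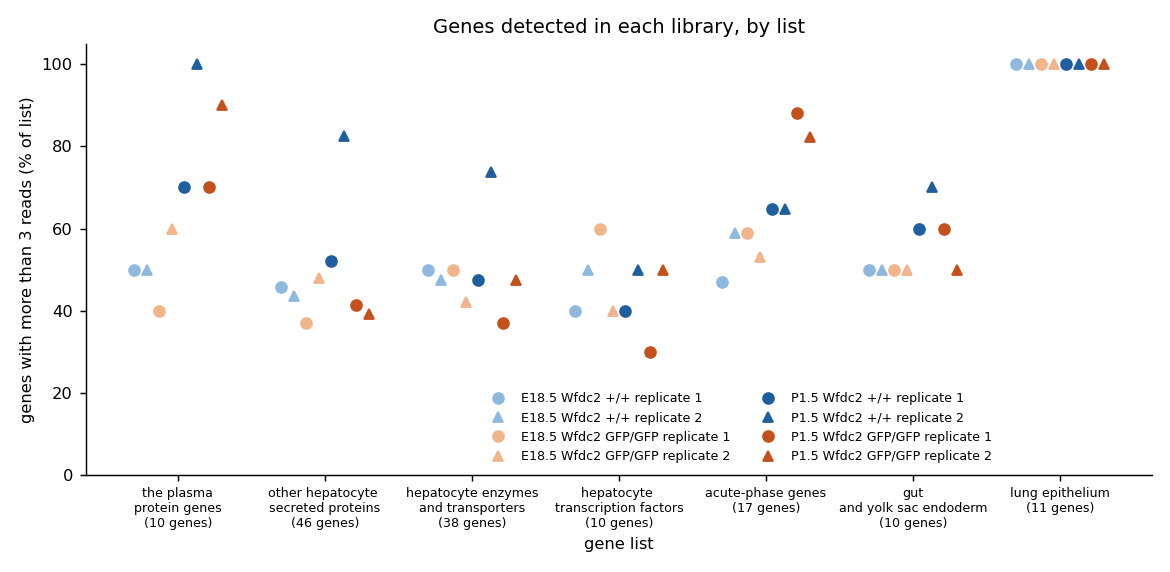
Share of the genes of each list with more than 3 reads in each library. In replicate 2 of P1.5 Wfdc2 +/+ 38 of 46 other secreted protein genes of hepatocytes and 28 of 38 enzyme and transporter genes are detected, above all other libraries, whereas transcription factor genes and lung epithelium genes do not set it apart.

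Genes of other organs, some of which make some of these proteins, were counted in the same way. Of the 10 gut and yolk sac endoderm genes, 7 were above 3 reads in this library against 5 or 6 in the others. Of the 7, *Apob* and *Apoa4* are also on the list of hepatocyte secreted proteins. The genes not above 3 reads were *Cdx2*, *Cdx1* and *Amn*, with 0, 1 and 0 reads. *Fabp1*, which was placed on this list only, was the 1 at least 4-fold above the other libraries, and whether its reads came from gut or liver cells was not tested. Of the 7 pancreas genes 5 were at or under 3 reads in all 8 libraries. Heart muscle genes summed to 270.1 RPM in replicate 2 of P1.5 *Wfdc2* +/+, inside the range of 171.2 to 749.6 RPM over the other libraries, and skeletal muscle genes to 49.1 RPM, inside 20.2 to 76.9 RPM. Besides the 10 genes, the lists of hepatocyte enzymes, acute-phase genes and gut and yolk sac endoderm had 1 gene each at least 4-fold above all other libraries, and every other list had 0. Of the 46 other secreted proteins, 15 passed the filter on low values that this count needs.

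The receptors, enzymes and binding partners through which these proteins act were looked at by lists of their own. One of them, *Plg* of the fibrin list, was also high in the library that stood apart, with the 51 reads given above. This library had the fewest reads of all, 19457647, so read numbers not scaled to RPM run low in it. For iron, 0 of the 9 genes were highest in it, and *Tfrc*, the receptor of transferrin, had 482 reads there against 702 to 5829 in the others. *Ftl1* and *Fth1*, the ferritin chains, had 28089 and 17078. For lipoproteins, 3 of the 10 genes were highest in it, and *Apoe*, which lung macrophages make, had 6287 reads there, its lowest number. For fibrin, 2 of 12 were highest in it. *Thbd*, the thrombomodulin gene, was highest in it, with 4878 reads or 250.7 RPM, against 83.6 to 232.5 RPM in the others. *F3*, the tissue factor gene, had 1062 reads there. For retinol and thyroxine, 0 of 8 were highest in it, and *Rbp4*, which circulates bound to transthyretin, had 180 reads in a range of 145 to 283. For albumin, 1 of 8 was highest in it. *Fcgrt*, the receptor that recycles albumin, had 2406 reads there, or 123.7 RPM in a range of 65.8 to 187.4 RPM. No partner gene passed the threshold of limma in either genotype comparison. From E18.5 to P1.5 in *Wfdc2* GFP/GFP, *Abca1* and *Lcat* fell among the 10 lipoprotein genes, with differences of -2.70 ± 0.52 and -2.28 ± 0.49 (SE; adjusted p = 0.0427 and 0.0477), while 0 of 7 iron, 0 of 11 fibrin and 0 of 6 albumin genes passed. Without replicate 2 of P1.5 *Wfdc2* +/+ these last counts were 1, 5 and 1, and without replicate 1 of E18.5 or of P1.5 *Wfdc2* GFP/GFP no gene was called in this comparison.

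Genes whose pattern over the 8 libraries was most like the mean pattern of the 10, by Pearson's correlation and as a description only, included *Fbln2* (r = 0.980), *Smad6*, *Gm10132*, *4930470G03Rik*, *Gm10689*, *Prss12*, *Psca* and *Nxn* (r = 0.956). They share with the 10 the library that stood apart. None of these is on the lists of genes used here. *Psca* was 42.5-fold above the next highest library there, and *Fbln2* and *Prss12* 1.47-fold and 1.49-fold. *Gm10132* and *Gm10689* had 2 reads each there, so their order rests on very few reads.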

How the data were processed

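Total lung RNA (Isogen) was made into NEBNext Ultra Directional libraries and sequenced on HiSeq2500 or GAIIx, and which library ran on which was not given in the sources used here. The authors trimmed the reads (NGS QC Toolkit, Trim Galore 0.4.0), aligned them to mm10 (TopHat 2.1.1) and deposited log2 RPKM from SeqMonk for each library. The kilobases are the whole gene span. Genes with no read stand in the table at 0.9 read. Whole reads were recovered from the steps of each library, and 100% of the values under 2000 reads came within 0.02 of a whole number.

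Samples were grouped from the labels. The deposited log2 values were fitted for 15627 genes that averaged 0.05 RPKM or more in the 8 libraries, of which 529 had no read in any and passed through the 0.9 read entered for them. Overlap between groups was taken on RPM, with such genes at 0. The tool was limma 3.58.1 in R 4.3.3, with a mean for each group (4 residual degrees of freedom) and a trended prior. P-values were two-sided and adjusted by the Benjamini-Hochberg method over all genes tested, with a threshold of 0.05. The animals of a group were separate. P-values rest on the spread within groups of 2 animals, pooled over the 4 groups and moderated across genes. The 2 animals of each group also differed in *Xist* and *Ddx3y*, so this spread includes sex. RPM intervals are exact binomial at 95% and cover counting error only. The genes, lists and tests were chosen with earlier results of these data known. Named genes were the 10, the most abundant or called genes of the lists, the 10 most alike and *Wfdc2*, and other names were chosen after their values were seen. Promoters came from RefSeq. Alternatives were a pseudocount of 0.1 RPKM, no filter or one at 0.5 RPKM, median centring, quantile normalization, voom on recovered reads, the replicate block, the 4 libraries compared alone and each library left out. Summaries used Python 3.11.15 with pandas 2.3.3, numpy 2.4.6, matplotlib 3.10.9 and scipy 1.17.1. Some genes that these rules would name are not reported here. qPCR, ELISA, blotting and histology were not analysed here.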

Additional observations from a re-analysis of the deposited data

How the results depend on the processing

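The 4 medians of the 10 genes moved under every alternative run by less than the SD between replicates of each library's own median over the 10 (1.20 to 2.78), an SD that the library that stood apart makes wide, and the signs of both genotype medians turned. At E18.5 the median of 0.09 became -0.12 with median centring and -0.08 with voom. Leaving out each library in turn, the median ranged from -4.31 to 0.51 for genotype at P1.5, from -0.43 to 0.47 for genotype at E18.5, from 1.40 to 6.05 for stage in *Wfdc2* +/+ and from 0.85 to 1.58 for stage in *Wfdc2* GFP/GFP. Quantile normalization moved the library medians by -0.31 to 0.41 in log2 RPKM. With the pseudocount of 0.1 RPKM the stage median in *Wfdc2* GFP/GFP was 0.27, and *Ahsg* at E18.5 went from -0.61 to 0.12. At 0.5 RPKM 4 of the 10 genes were left, with a median of -0.73 at E18.5.

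Counts of called genes were unstable, and the cause was not tested. For genotype at P1.5 the 2 genes called became 11 with the pseudocount, 21 without the filter and 0 with median centring, quantile normalization, the replicate block, voom or the 4 libraries alone, and 0 to 24 leaving out each library. For genotype at E18.5 the 3 became 6 with the pseudocount, 22 without the filter, 1 at 0.5 RPKM, 1 with the 4 libraries alone and 0 with median centring, quantile normalization, the replicate block or voom, and 0 to 1 leaving out each library. For stage in *Wfdc2* +/+ the 9 became 16 with the pseudocount, 35 without the filter, 52 at 0.5 RPKM, 5 with median centring, 49 with quantile normalization and 0 with the replicate block, voom or the 4 libraries alone, and 0 to 2166 leaving out each library, the most without replicate 2 of P1.5 *Wfdc2* +/+. For stage in *Wfdc2* GFP/GFP the 711 (252 higher) became 349 without the filter, 1279 with median centring (849 higher), 125 with the replicate block, 129 with voom and 3036 with the 4 libraries alone, and 0 to 4874 leaving out each library. For the difference between the genotype effects the count was 0 and at most 2.

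The labels number replicates 1 and 2 in every group but do not say that a number marks a litter or day. Deviations of same-numbered libraries correlated across genes at 0.23 between genotypes at E18.5 and 0.21 at P1.5, and at -0.29 to 0.08 between the other pairs of groups, so the pairing was not used and the replicate block is given here only. No member was called under the block in any comparison. *Apoa1* passed at P1.5 with the pseudocount (-3.72). Without replicate 1 of P1.5 *Wfdc2* +/+, only the library that stood apart was left in that group. The difference of *Alb* was then -6.15 at P1.5 and 5.81 for stage in *Wfdc2* +/+, values that follow from that library. For stage, *Apoa1* passed in +/+ with the pseudocount, the 0.5 RPKM filter or quantile normalization, and in GFP/GFP *Apoa1*, *Apoa2* and *Fgg* passed with median centring, *Apoa2* and *Fgg* with quantile normalization, *Apoa1*, *Apoa2*, *Fga* and *Fgg* with the 4 libraries alone, and *Apoa1* and *Fgg* without replicate 2 of E18.5 *Wfdc2* GFP/GFP. Depth limits *Fga*, *Fgb*, *Fgg* and *Ttr* most, with medians of 0 to 3 reads outside 1 library.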
